A study of Mus musculus with 10 samples.

Results

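The genes described here are 9 markers of the medium spiny neurons of the striatum, Ppp1r1b, Drd1, Drd2, Adora2a, Penk, Pdyn, Tac1, Rgs9 and Pde10a, taken as a set of known markers with earlier results of these data in view. They were found through the gene symbols of the array's probesets, and 8 of the 9 had a probeset, 1 each and none shared with another gene, among 19938 genes and 23410 probesets with at least 1 symbol. Adora2a, the adenosine receptor of the indirect pathway, was not analysed here because the annotation used named no probeset for it. RNA came from the perfused whole brains of 5 Aldara-treated mice and 5 control mice, with 1 Affymetrix mouse gene array per mouse. All were female C57BL/6 mice aged 6 to 8 weeks. The Aldara-treated mice received 80 mg of Aldara cream, which holds 5% imiquimod, a ligand of the RNA sensor TLR7, on shaved back skin. The control mice received an aqueous cream on the same schedule of 5 applications at intervals of 24 h, and their brains were harvested 24 h later. Since the control was a plain aqueous cream, imiquimod and the other constituents of Aldara cannot be told apart in this comparison.

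Medium spiny neurons are inhibitory projection neurons and by far the most common neurons of the striatum. Those of the direct pathway carry the dopamine D1 receptor, which raises cyclic AMP, and release dynorphin and substance P. Those of the indirect pathway carry the D2 receptor, which lowers cyclic AMP, together with the adenosine receptor that Adora2a encodes, and release enkephalin. Both types share a set of signalling proteins that relay or limit the dopamine signal. The peptide genes and receptors are also expressed in other brain regions, so a whole-brain level is not a striatal level. Because the tissue was bulk whole brain, fewer cells of a type and less RNA per cell cannot be told apart.

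Promoter sequences are shown for Tac1, the only one of the 8 that did not pass the test described next, and, beside it, for Drd1 and Pdyn of the direct and Drd2 of the indirect pathway, which did. They come from RefSeq (build GRCm38.p6), whose table matched 6 of the 8 measured genes and not Penk and Ppp1r1b, and each line gives the 250 bases before the most upstream start site, 5′ to 3′ on the gene's strand. Capitals mark the 5-letter core of the cyclic AMP response element, CGTCA, or the same core read on the other strand, TGACG.
Tac1, chr6:7554811-7555060, plus strand: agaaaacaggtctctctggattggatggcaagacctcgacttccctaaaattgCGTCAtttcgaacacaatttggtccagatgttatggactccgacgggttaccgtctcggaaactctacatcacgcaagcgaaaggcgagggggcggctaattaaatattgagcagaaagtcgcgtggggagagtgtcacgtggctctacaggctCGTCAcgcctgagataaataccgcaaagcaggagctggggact
Drd1, chr13:54055659-54055908, minus strand: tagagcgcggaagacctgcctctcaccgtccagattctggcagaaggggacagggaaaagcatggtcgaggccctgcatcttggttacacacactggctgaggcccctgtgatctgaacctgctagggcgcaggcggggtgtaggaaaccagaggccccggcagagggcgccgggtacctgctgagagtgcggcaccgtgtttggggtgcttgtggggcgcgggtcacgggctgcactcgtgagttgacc
Pdyn, chr2:129699939-129700188, minus strand: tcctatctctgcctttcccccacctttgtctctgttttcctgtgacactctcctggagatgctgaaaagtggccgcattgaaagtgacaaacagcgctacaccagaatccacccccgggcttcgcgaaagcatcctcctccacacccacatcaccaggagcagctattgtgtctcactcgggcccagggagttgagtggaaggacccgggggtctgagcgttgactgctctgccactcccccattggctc
Drd2, chr9:49340153-49340402, plus strand: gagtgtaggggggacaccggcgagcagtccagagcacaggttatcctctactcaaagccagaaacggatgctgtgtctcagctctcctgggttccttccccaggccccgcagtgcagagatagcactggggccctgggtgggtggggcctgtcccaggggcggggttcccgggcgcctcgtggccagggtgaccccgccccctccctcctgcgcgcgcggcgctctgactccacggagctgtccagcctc
The Tac1 promoter held 2 such cores, 197 and 43 bases before the start site at their first base. The windows of Drd1, Pdyn and Drd2 held none, nor did those of Rgs9 and Pde10a or the further starts of Drd1, Pdyn and Pde10a. Of 32851 mouse promoter windows of this length, 17.8% held at least 1 core and 3.9% held 2 or more. The palindrome TGACGTCA, which holds both cores with an overlap, was in 1.55% of the windows and in none of the 9 of these genes. Penk and Ppp1r1b, which also passed the test, had no window to search. These are matches of letters, and whether any factor bound there was not measured. A link between the cores and the change of a gene was not tested.

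Levels of 7 of the 8 genes were lower in the brains of Aldara-treated mice, none was higher, and Tac1 did not pass the test (limma, adjusted p under 0.05 over all 23410 probesets). Among all probesets tested, 21.0% were lower and 12.4% higher by the same rule. When only the brighter probesets were tested (mean at or above the median), 35.1% were lower, as were 6 of the 7 genes found there. For 6 of the 8 genes every Aldara-treated mouse lay below every control mouse, which held for 15.3% of all probesets. Of the 40 single values from Aldara-treated mice, 35 lay below every control value of their gene. These values came from the same 5 arrays and are not separate observations. The share of such values over all probesets was not computed. The decreases were modest, between 11.5% and 25.3%, and the median difference over all probesets was -0.04 on the log2 scale. Precision is limited by there being 5 arrays a group.

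**Figure D1:**
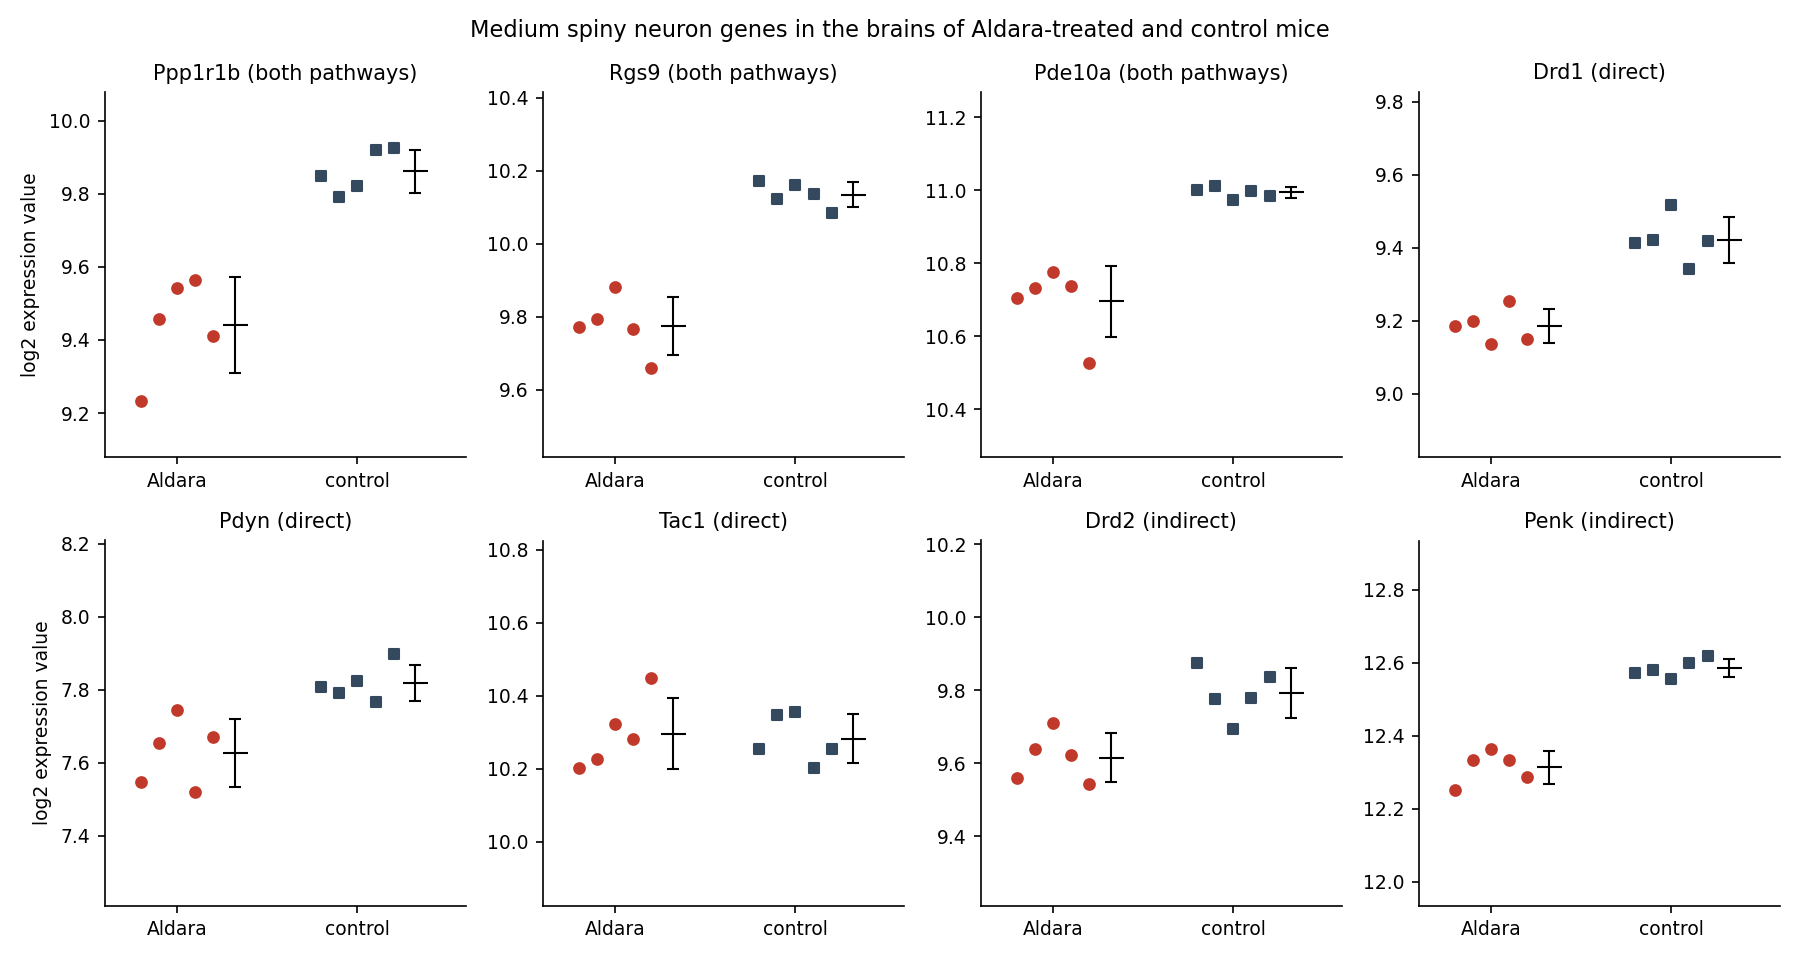
Each panel plots the log2 expression value (y axis) of 1 gene in the brains of 5 Aldara-treated mice (circles) and 5 control mice (squares), with the mean and SD as a bar to the right of each group; the y axes all span 1 log2 unit but are centred on different levels. The groups are apart in every panel except those of Drd2, where they overlap slightly, and Tac1, where they overlap widely.

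The 3 genes that both types of medium spiny neuron express had the largest decreases of the 8. Ppp1r1b encodes DARPP-32, a protein that blocks protein phosphatase 1 once dopamine signalling has led to its phosphorylation. Its log2 values were 9.23, 9.46, 9.54, 9.57 and 9.41 in Aldara-treated mice 1 to 5, against 9.85, 9.79, 9.82, 9.92 and 9.92 in control mice 1 to 5. The groups did not overlap, and Aldara-treated mouse 1 was the lowest. The log2 difference was -0.42 (standard error 0.06, adjusted p = 1.69e-04 from limma), a decrease of 25.3% (95% interval 18.5% to 31.5%). It ranked number 67 from the lowest of all 23410 differences.

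Rgs9 encodes a regulator of G protein signalling that is enriched in the striatum and shortens the signal of D2 and opioid receptors. It had log2 values of 9.77, 9.79, 9.88, 9.77 and 9.66 in Aldara-treated mice, against 10.17, 10.12, 10.16, 10.14 and 10.08 in control mice. All Aldara-treated mice were below all control mice, with a gap of 0.20 between the groups. The difference was -0.36 (standard error 0.04, adjusted p = 2.34e-05 from limma), a decrease of 22.1% (95% interval 17.4% to 26.5%).

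Pde10a encodes the phosphodiesterase that degrades cyclic AMP and cyclic GMP in medium spiny neurons of both types. Its log2 values were 10.71, 10.73, 10.78, 10.74 and 10.53 in Aldara-treated mice and 11.00, 11.01, 10.97, 11.00 and 10.99 in control mice. The control mice were close together, with an SD of 0.02, while Aldara-treated mouse 5 stood below the other 4 Aldara-treated mice. The difference was -0.30 (standard error 0.04, adjusted p = 2.27e-04 from limma), a decrease of 18.7% (95% interval 13.3% to 23.8%), and it lay between -0.32 and -0.26 when any 1 array was left out.

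Of the direct pathway genes, the receptor and dynorphin were lower and the substance P precursor was not. Drd1, the D1 receptor, had log2 values of 9.18, 9.20, 9.14, 9.25 and 9.15 in Aldara-treated mice, against 9.41, 9.42, 9.52, 9.34 and 9.42 in control mice. These groups did not overlap. The difference was -0.24 (standard error 0.04, adjusted p = 3.56e-04 from limma), a decrease of 15.1% (95% interval 10.4% to 19.6%).

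Pdyn encodes prodynorphin, the precursor of the peptides that act on the kappa opioid receptor. It had log2 values of 7.55, 7.65, 7.74, 7.52 and 7.67 in Aldara-treated mice and 7.81, 7.79, 7.82, 7.77 and 7.90 in control mice. The groups were apart by only 0.02, between Aldara-treated mouse 3 and control mouse 4. The difference was -0.19 (standard error 0.04, adjusted p = 0.00583 from limma), a decrease of 12.4% (95% interval 6.28% to 18.1%).

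Tac1 encodes preprotachykinin, the precursor of substance P and neurokinin A. Its log2 values were 10.20, 10.23, 10.32, 10.28 and 10.45 in Aldara-treated mice, against 10.25, 10.35, 10.36, 10.20 and 10.25 in control mice. The groups overlapped, Aldara-treated mouse 5 had the highest value of all 10 mice, and the lowest 2 values, 1 from each group, were both 10.20. The difference was 0.01 (standard error 0.05, adjusted p = 0.858 from limma), with a 95% interval of -0.09 to 0.12, whose lower end is a decrease of 6.21%.

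Both measured genes of the indirect pathway were lower. Drd2, the D2 receptor, which is also the autoreceptor of dopamine neurons, had log2 values of 9.56, 9.64, 9.71, 9.62 and 9.54 in Aldara-treated mice and 9.88, 9.78, 9.69, 9.78 and 9.84 in control mice. The groups overlapped by 1 pair, since Aldara-treated mouse 3 lay just above control mouse 3. The difference was -0.18 (standard error 0.04, adjusted p = 0.00619 from limma), a decrease of 11.5% (95% interval 5.78% to 16.9%).

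Penk encodes proenkephalin, the precursor of the enkephalins. It had log2 values of 12.25, 12.33, 12.36, 12.33 and 12.29 in Aldara-treated mice, against 12.57, 12.58, 12.56, 12.60 and 12.62 in control mice. The groups did not overlap, and the gap of 0.19 between them was wider than the range within either group. The difference was -0.27 (standard error 0.03, adjusted p = 2.07e-05 from limma), a decrease of 17.1% (95% interval 13.5% to 20.7%).

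A two-sided exact permutation test of each gene gave p = 0.00794, the smallest that 5 against 5 mice allow, for Ppp1r1b, Rgs9, Pde10a, Drd1, Pdyn and Penk. The same exact test gave p = 0.0159 for Drd2 and p = 0.841 for Tac1.

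To compare the pathways, each direct pathway gene was set against each indirect pathway gene on the same array, as the difference of their log2 values. The level of such a difference has no meaning across probesets, and only its change between the groups was read. Of the 6 pairs, 1 passed, Tac1 against Penk (exact two-sided permutation tests, adjusted over the 6 pairs). Tac1 minus Penk was -2.05, -2.11, -2.04, -2.05 and -1.84 in Aldara-treated mice, against -2.32, -2.23, -2.20, -2.40 and -2.36 in control mice. The groups did not overlap, so that Tac1 stood higher relative to Penk in every Aldara-treated mouse than in any control mouse. The change was 0.28 on the log2 scale (95% interval 0.15 to 0.43, exact permutation p = 0.00794, adjusted p = 0.0476). This is the smallest p that 5 against 5 mice allow.

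Tac1 minus Drd2 was 0.64, 0.59, 0.61, 0.66 and 0.90 in Aldara-treated mice and 0.38, 0.57, 0.66, 0.42 and 0.42 in control mice. The values overlapped through control mouse 3, and the change of 0.19 (95% interval -0.0014 to 0.38) did not pass (exact permutation p = 0.0556, adjusted p = 0.167). Pairs with Drd1 and Pdyn changed less. The receptor pair, Drd1 minus Drd2, averaged -0.43 ± 0.09 in Aldara-treated mice and -0.37 ± 0.11 in control mice (SD, n = 5 each), a change of -0.06 (95% interval -0.22 to 0.07, exact permutation p = 0.46, adjusted p = 0.562). The opioid peptide pair, Pdyn minus Penk, averaged -4.69 ± 0.08 in Aldara-treated mice and -4.77 ± 0.05 in control mice (SD, n = 5 each), a change of 0.08 (95% interval -0.02 to 0.17, exact permutation p = 0.0873, adjusted p = 0.175). Drd1 minus Penk changed by 0.04 (95% interval -0.08 to 0.13) and Pdyn minus Drd2 by -0.01 (95% interval -0.13 to 0.11), with adjusted p = 0.562 and 0.762 from the exact permutation tests. The pairs that did not pass are not thereby shown to have changed alike.

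**Figure D2:**
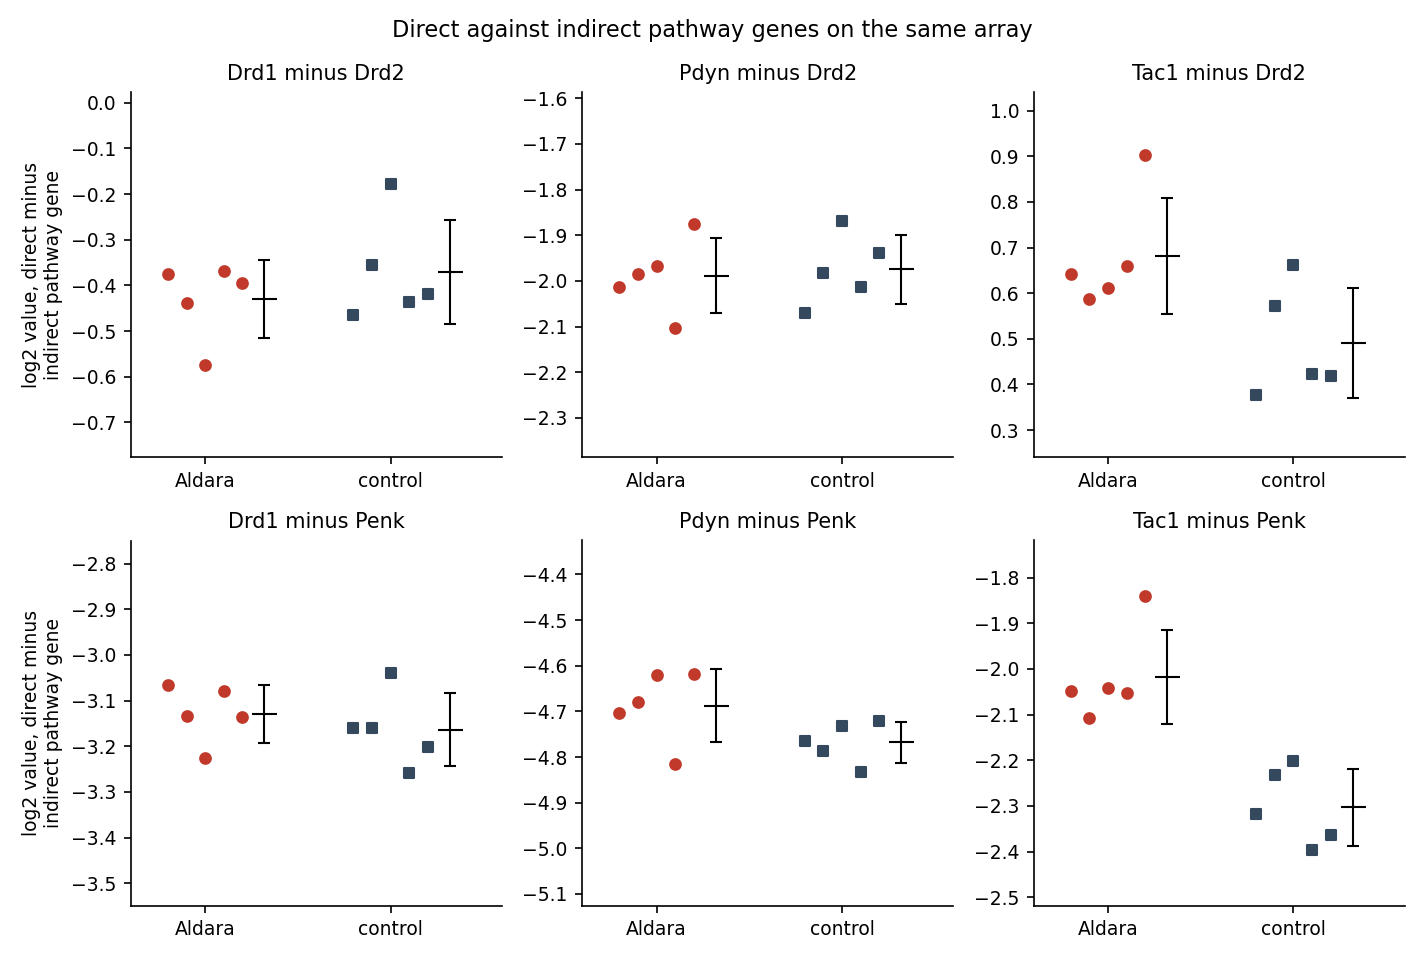
Each panel plots the log2 value of a direct pathway gene minus that of an indirect pathway gene on the same array (y axis) in 5 Aldara-treated mice (circles) and 5 control mice (squares), with the mean and SD as a bar; the y axes all span 0.8 log2 units. Only in the panel of Tac1 minus Penk are the groups fully apart, at -2.11 to -1.84 in Aldara-treated mice, against -2.40 to -2.20 in control mice.

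Averaged over the genes of each kind, the log2 difference was -0.36 for the 3 genes of both types, -0.14 for the 3 direct pathway genes and -0.22 for the 2 indirect pathway genes. The direct pathway mean was 0.09 above the indirect one with Tac1 and 0.01 above it without Tac1, as a description with no test.

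Other genes of medium spiny neurons were mostly lower as well. Of 33 measured genes outside the 8, 28 were lower and 0 were higher, where 21.0% of all probesets were lower. For 24 of them every Aldara-treated mouse lay below every control mouse, which held for 15.3% of all probesets. The median log2 difference of the 33 was -0.23. Among the 22 that both types express, 21 were lower, with a median of -0.25. Because bulk whole brain was measured, these levels cannot be assigned to medium spiny neurons alone. Adcy5, the main adenylyl cyclase of the striatum, averaged 10.03 ± 0.06 in Aldara-treated mice and 10.48 ± 0.04 in control mice (SD, n = 5 each), a difference of -0.45 (standard error 0.03, adjusted p = 1.42e-06 from limma). Pde1b, a calmodulin-dependent phosphodiesterase, was lower by 18.3%, Rxrg, a retinoid receptor, by 16.4%, and Tmem158 by 16.2%. The largest decrease was that of Gng7, a G protein subunit that works with Adcy5, at 27.7%, and the gene that did not pass was Zfp503, a transcription factor, at -0.02 (adjusted p = 0.698 from limma); these 2 were picked after their values were seen.

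The lists of genes typical of 1 pathway gave 3 of 7 lower for the direct and 4 of 4 lower for the indirect pathway, with medians of -0.13 and -0.23. Of all probesets, 21.0% were lower, and 35.1% when only the brighter ones were tested. Relative to the pan-neuronal genes described below, 1 of 7 direct and 1 of 4 indirect pathway genes were lower, beside 3.10% of all probesets. The difference between the lists was not tested. The direct count was 2 or 3 when any 1 array was left out, 2 by the methods' t-test and 4 with centred arrays. For the direct pathway, Slc35d3, a transporter needed for D1 receptor traffic, was lower by 14.9% without overlap. Chrm4, the M4 muscarinic receptor, was lower by 14.4%, and Isl1, a transcription factor of striatonigral neurons, by 8.87% (adjusted p = 0.0462 from limma), both with overlapping groups. The other 4, Eya1, Sfxn1, Zfp521 and Ebf1, did not pass, with log2 differences of -0.13, 0.07, 0.07 and 0.09. For Sfxn1 every Aldara-treated mouse lay above every control mouse (adjusted p = 0.0882 from limma). For the indirect pathway, the orphan receptor Gpr6 was lower by 25.2%, Sp9, a transcription factor, by 16.3%, the orphan receptor Gpr52 by 13.5% and the kainate receptor subunit Grik3 by 13.1%, all with groups that did not overlap.

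Genes around the 8 were counted by role. Beside the counts that follow, 21.0% of all probesets were lower, and 35.1% when only the brighter ones were tested. Relative to the pan-neuronal genes, 3.10% were lower. In the signalling cascade of the dopamine and adenosine receptors, 14 of 18 measured genes were lower and 0 higher, with a median of -0.15, and 5 of 18 were lower relative to the pan-neuronal genes described below. Adcy5, Pde1b, Gnal and Gng7, which are among the 14, were already counted above with the genes of both medium spiny neuron types. The 14 also included Prkar2b, a regulatory subunit of protein kinase A, lower by 14.7%, and Rgs7bp, which anchors regulators such as RGS9 at membranes, lower by 13.0%. Of 6 receptors of the striatal peptides, 5 were lower, but only 3 without Aldara-treated mouse 1, 4 or 5 or control mouse 1, 3 by the methods' t-test and 2 when the Aldara arrays were shifted to a median difference of 0. Relative to the pan-neuronal genes, 1 of the 6 was lower. Signals were low, and only 1 of the 6 was among the brighter probesets. Oprk1, the kappa opioid receptor on which dynorphin acts, was lower by 21.4%, Oprd1, the delta opioid receptor on which enkephalin acts, by 6.57%, and the neurokinin receptors Tacr3 and Tacr2 by 11.1% and 10.9%. Of 7 enzymes and helpers of neuropeptide processing, 3 were lower, namely Cpe, Scg5 and Pcsk1n, with log2 differences of -0.20, -0.24 and -0.25. Relative to the pan-neuronal genes, 0 of the 7 were lower. The carboxypeptidase gene Cpd was higher, with a log2 difference of 0.35. Of 6 further receptors of dopamine and adenosine, only 3 were measured, all of them dopamine receptors. The adenosine receptor genes Adora1, Adora2b and Adora3 had no probeset of their own. Among the 3, Drd5 and Drd3 were lower by 9.99% and 7.37%, and Drd4 did not pass. The count of 2 was 1 without Aldara-treated mouse 1, 4 or 5 or control mouse 2 or 4. It was 0 relative to the pan-neuronal genes, and 0 of the 3 were among the brighter probesets.

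**Figure D3:**
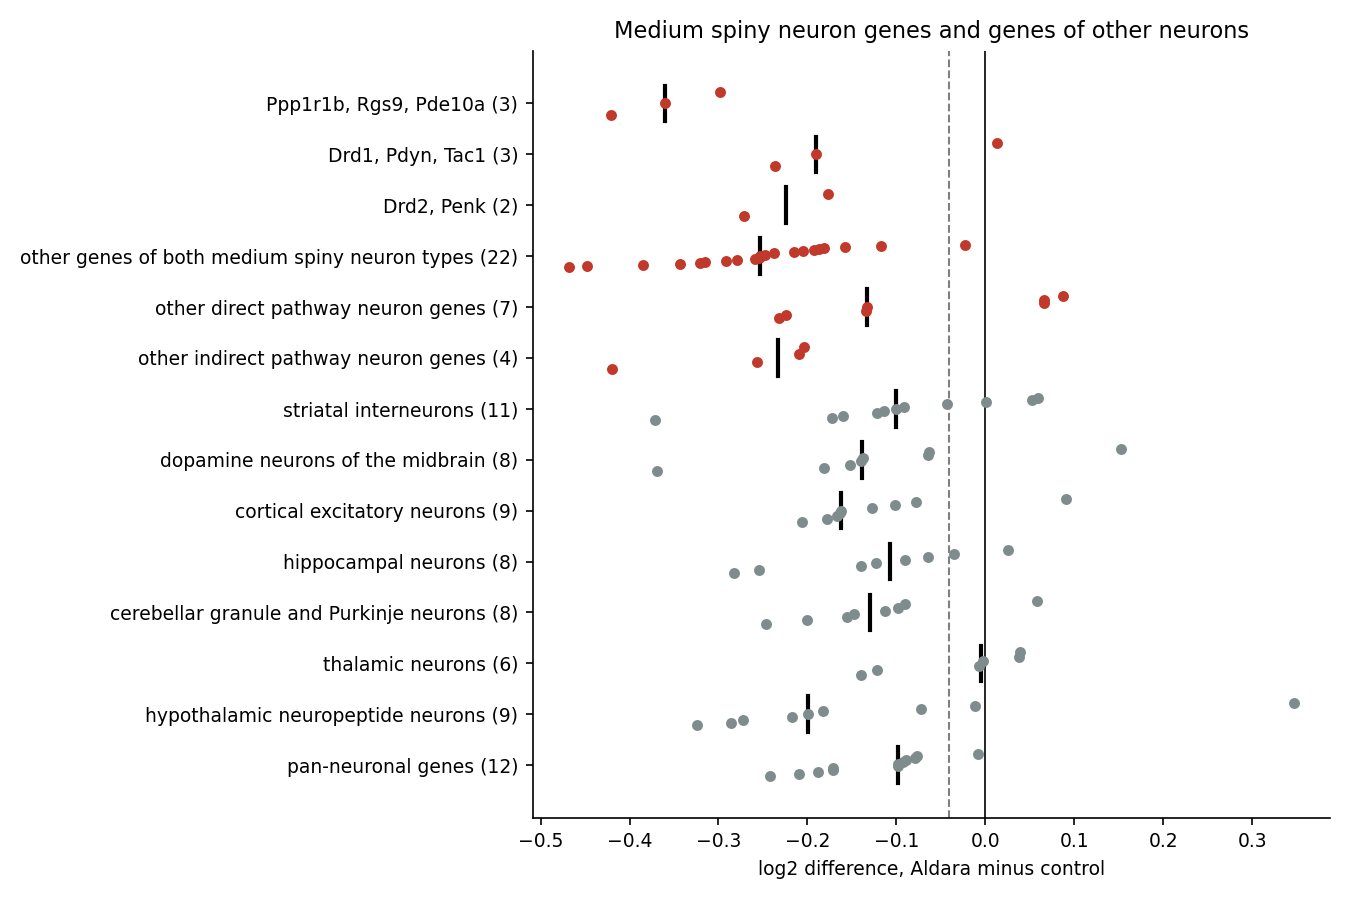
Each point is the log2 difference between Aldara-treated and control mice (x axis) of 1 gene, by list (rows, with the number of genes measured); black bars are list medians, red marks genes of medium spiny neurons, grey marks genes of other neurons, and the dashed line is the median of all probesets, -0.04. Genes of both medium spiny neuron types lie farthest to the left, with medians of -0.36 and -0.25, against -0.10 for the pan-neuronal genes.

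Genes of neurons in general were lower too, and the decreases of the 8 genes were read against them. Of 12 pan-neuronal genes, 9 were lower and 0 higher, with a median of -0.10, and 5 were lower after the same shift to a median difference of 0. Elavl3, an RNA-binding protein of neurons, and Eno2, the neuronal enolase, were lower by 15.4% and 13.5%. All 3 measured genes of GABA synthesis and transport, Slc32a1, Gad1 and Gad2, were lower, by 12.8%, 12.8% and 7.54%. The medians were -0.10 for striatal interneurons (4 of 11 lower), -0.14 for dopamine neurons of the midbrain (4 of 8 lower, 1 higher), -0.16 for cortical excitatory neurons (4 of 9 lower), -0.11 for hippocampal neurons (3 of 8 lower), -0.13 for cerebellar neurons (4 of 8 lower), -0.20 for hypothalamic peptide neurons (5 of 9 lower) and -0.0048 for thalamic neurons (1 of 6 lower). Th, the enzyme of dopamine synthesis, was lower by 22.6% and Ddc, the next enzyme, by 11.8%. The count for midbrain dopamine neurons was 1 by the methods' t-test, 1 without Aldara-treated mouse 5 or control mouse 1 or 2, and 2 without Aldara-treated mouse 1 or 4 or control mouse 3 or 5. That for thalamic neurons was 2 without Aldara-treated mouse 5 or control mouse 4. Beside these counts, 21.0% of all probesets were lower, and 35.1% when only the brighter ones were tested. The lists were not tested against each other.

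When each array was set relative to its mean over the pan-neuronal genes, 4 of the 8 genes were still lower, where 3.10% of all probesets were lower and 38.6% higher on that scale. The 4 were Ppp1r1b at -0.29 (adjusted p = 0.00173), Rgs9 at -0.23 (adjusted p = 0.00108), Pde10a at -0.17 (adjusted p = 0.0124) and Penk at -0.14 (adjusted p = 0.00422), all from limma. Drd1 at -0.11 (adjusted p = 0.0588), Pdyn at -0.06 (adjusted p = 0.293) and Drd2 at -0.05 (adjusted p = 0.355) did not pass on this scale in limma, while Tac1 was higher, at 0.14 (adjusted p = 0.0496). On that scale the median of all probesets was 0.09, and the changes between the pairs of genes stay as they are because they do not depend on a shift of the array. Of the 22 other genes of both medium spiny neuron types, 13 were lower on this scale.

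**Figure D4:**
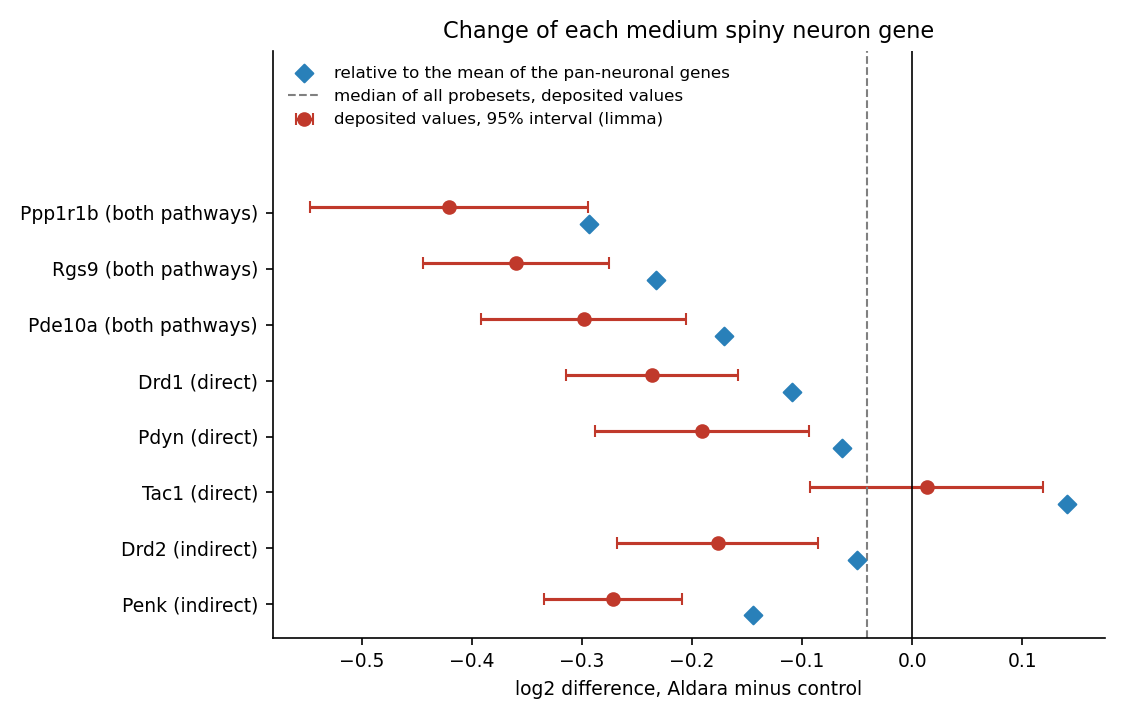
The log2 difference between Aldara-treated and control mice (x axis) of each of the 8 genes (rows), as deposited (red circles, with the 95% interval from limma) and relative to the mean of the pan-neuronal genes (blue diamonds); the dashed line is the median of all probesets as deposited. All genes except Tac1 lie left of 0 on both scales, and Tac1 lies at 0.01 and 0.14.

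Markers of other cell types moved with the groups in the same brains. Of 10 genes of microglia and macrophages 9 were higher, with a median log2 difference of 1.46, and their summed level on the unlogged scale was 9930 to 12600 in Aldara-treated mice, against 3540 to 3870 in control mice. Of 7 endothelial genes 5 were higher, and their summed level was 5440 to 6160 in Aldara-treated mice, against 4040 to 4560 in control mice. Of 6 choroid plexus genes 4 were lower, and their summed level was 6860 to 8340 in Aldara-treated mice, against 10700 to 12500 in control mice. Of 8 astrocyte genes 4 were lower and 3 higher, and of 7 oligodendrocyte genes 1 was lower (2 without Aldara-treated mouse 1) and 1 higher. Detection calls were not used here, so no marker could be called absent. The part of these cell types in the decreases of the 8 genes was not tested.

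The arrays also stood apart by group over the 23410 probesets with a symbol, the only ones used for these values. Medians ran between 8.16 and 8.19 for Aldara-treated mice, against 8.10 and 8.14 for control mice, without overlap, and arrays of different groups correlated at 0.981 to 0.988 across probesets, against 0.995 to 0.999 within the Aldara-treated mice and 0.998 to 0.999 within the control mice.

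Within the groups the 8 genes did not vary as one. After each group's mean was taken off, the correlation between 2 of the genes over the 10 arrays had a median of 0.17 over the 28 pairs and lay above 0 for 19 of them. It was highest for Ppp1r1b and Penk (Pearson's r = 0.90, Spearman's rho = 0.88) and for Rgs9 and Pde10a (r = 0.83, rho = 0.39), and lowest for Tac1 and Pde10a (r = -0.61, rho = -0.26). All genes were read from the same 10 arrays, so these values share each array's quality. Among 9875 other genes, the mean deviation of the 8 was most like those of Pdxp (r = 0.96), Abhd3 (r = 0.94), Cbfa2t2 (r = 0.94), Wdr83os (r = 0.93), Sinhcaf (r = 0.93), Tmem214, Manbal, Gtf3a, B230217C12Rik and Dad1 (r = 0.90 to 0.91). Only 1 of these 10 genes stayed among the first 10 without Aldara-treated mice 1 and 3, the 2 farthest from the median, so the order rests on those arrays. Pdxp, Abhd3 and B230217C12Rik were also lower in Aldara-treated mice, with log2 differences of -0.31, -0.36 and -0.43, and the other 7 did not pass.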

How the data were processed

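The deposited values are log2 expression values, 1 per probeset and array, produced by the authors in GeneSpring GX by a method their text calls RMA 16 (background subtraction, quantile normalisation and summary of each probeset). The GeneSpring version was not given in the sources read, and scanner values were not used. Symbols came from the platform annotation; of 28856 probesets, 21789 had 1 symbol, 1621 several and 5446 none. The 23410 with a symbol were tested with limma 3.58.1 (lmFit, eBayes) in R 4.3.3, Aldara minus control, with no covariate, and Benjamini-Hochberg adjustment over all of them at a threshold of 0.05. For lists, the probeset with the highest mean stood for each gene. Decreases in percent come from the log2 differences, unlogged. Pairs of genes were compared with exact permutation tests over all 252 relabelings. The tests were tested on simulated data. Genes named are the 8, up to 4 of each list that passed with the smallest p (otherwise 2), and the 10 genes most alike; further names were picked after their values were seen. The 9 genes, the lists and the tests were chosen with earlier results of these data known. Alternatives were other scalings, probeset filters and variance models, the methods' t-test, the replicate number as a block, and leaving out each array in turn.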

Additional observations from a re-analysis of the deposited data

Results flagged for a closer look

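In 13 of 180 groups of 5 values, 1 mouse stood apart from the other 4 by a gap of more than 0.71 of the range, which chance gives in about 1 of 20 groups. Among the 8 genes this was Pde10a in Aldara-treated mouse 5, at 10.53 against 10.71 to 10.78 in the other 4. The same mouse was highest in Tac1 minus Drd2, at 0.90 against 0.59 to 0.66, and in Tac1 minus Penk, at -1.84 against -2.11 to -2.04. Of the genes of other lists, Aldh1a1 was lowest in Aldara-treated mouse 3, at 10.57. Low control values were those of Grik3 (9.91) and Adcy5 (10.41) in mouse 2, of Nos1 (9.29), Pmch (8.51) and Cdh5 (8.52) in mouse 4, of Gfap (9.26) in mouse 1 and of Mag (11.06) in mouse 3. High control values were those of Oprk1 (8.21) in mouse 3 and Ptprc (7.17) in mouse 5.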

How the results depend on the processing

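Of the 8 genes, 7 were lower and 0 higher whichever of the 10 arrays was left out, and with the arrays centred, quantile-normalised or shifted to a median difference of 0, with all probesets or those with 1 symbol, with an intensity trend, with array weights and by the methods' t-test; among the brighter probesets, where Pdyn was not tested, 6 of 7 were. Relative to the pan-neuronal genes, 4 were lower and 1 higher, and the lists of other medium spiny neuron genes had 1 of 7 (direct), 1 of 4 (indirect) and 13 of 22 (both types) lower; among the brighter probesets the direct list had 1 of 5. Since a scale relative to these genes moves every probeset, the count of lower probesets over all, 4926, was 726 there, with 9043 higher against 2901. It was 9606, with 2299 higher, for centred arrays, and 2760, with 3833 higher, for a median difference of 0, so the balance of small changes depended on the scaling. With the median difference set to 0, lower counts were also 5 of 12 for pan-neuronal, 1 of 8 for midbrain dopamine and 2 of 11 for interneuron genes; with centred arrays they were 11 of 12 and, for interneurons and cortical neurons, 7 of 11 and 8 of 9. Pairs past the threshold numbered 1 to 2 when 1 array was left out. Without Aldara replicate 4, Pdyn against Penk passed as well (0.11, adjusted p = 0.0238 from the exact permutation tests), and without control replicate 3, Tac1 against Drd2 (0.23, adjusted p = 0.0238). The labels do not say that equal replicate numbers mark paired mice. Deviations of same-numbered arrays correlated at -0.11 to 0.25, which cannot decide this, since differently numbered arrays were not compared. With the replicate block, 7 of the 8 genes were lower and 0 of 6 pairs passed by the exact sign-flip test, in which none could pass, since 5 pairs of mice allow no p under 0.0625 (Tac1 against Penk 0.28, adjusted p = 0.188). The direct minus indirect mean stayed between 0.06 and 0.12 without any 1 array. Of the 10 genes most alike, 3 remained by Spearman correlation, 7 after quantile normalisation and 1 without the 2 farthest arrays.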

Other observations

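Sst, the somatostatin gene of interneurons, averaged 11.93 ± 0.13 in Aldara-treated mice and 12.30 ± 0.04 in control mice (SD, n = 5 each), a log2 difference of -0.37 (standard error 0.05, adjusted p = 2.94e-04 from limma), and Npy was lower by 11.2%. Of 9 genes of hypothalamic peptide neurons, 5 were lower, among them Hcrt, the orexin gene of the lateral hypothalamus, by 20.1%; Trh, Crh, Ghrh and Pomc did not pass, at log2 differences of -0.20, -0.07, -0.01 and 0.35. Of 12 activity-dependent genes, 5 were lower and 0 higher, with the median at -0.24. The lower count was 8 without control replicate 5, 9 with centred arrays and 3 relative to the pan-neuronal genes. On that last scale, 1 of the 9 hypothalamic genes was lower. Beside the main counts of both lists, 21.0% of all probesets were lower, and 35.1% when only the brighter ones were tested. Npas4, an early gene of neuronal firing, was lower by 35.9% and Arc, a synaptic early gene, by 27.4%. Whether these changes were linked to those of the medium spiny neuron genes was not tested.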
